A study of Rattus norvegicus with 30 samples.

Results

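Interferon-responsive genes were followed across 6 groups of livers. The list holds 37 rat genes known to be induced by interferons, and 36 of them were matched to the array by transcript accession, through 41 probes out of 30367. Xaf1 had no match and is named only. The brightest probe of each gene in rat liver was used, so the 36 genes are among 27533 genes or unnamed transcripts. All animals were male. Crl:CD(SD) rats, called SD rats here, gave 4 livers after plain feed (0 ppm, the control diet) and 4 after feed containing 1000 ppm PB, and CAR KO rats gave 4 livers of each kind. Mice that carry rat hepatocytes, called chimeric mice here, gave 7 livers on each diet. Feeding lasted 7 days in every group, and neither the animals' age nor the knockout's parent stock is stated in the labels. PB stands for phenobarbital. CAR, the constitutive androstane receptor encoded by Nr1i3, carries the signal by which PB raises many drug-metabolising enzymes of liver. Chimeric livers hold hepatocytes of rat origin beside cells of the mouse host, and the share of hepatocytes that are rat is not given here. The array carries rat probes, so the signal from mouse RNA in these livers depends on sequence likeness. The comparisons ask whether PB alters this gene group, whether that requires CAR, and how the chimeric liver compares with the rat liver.

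Interferons are secreted proteins that warn tissue of infection. Type I interferons bind a receptor whose signal brings STAT2 and IRF9 into a complex that binds the interferon-stimulated response element in promoters, whereas interferon gamma acts on promoters that hold the gamma-activated site. The induced genes encode antiviral effectors, RNA sensors, antigen transporters, regulators that extend or end the response, and chemokines that draw T cells and NK cells. Hepatocytes, Kupffer cells and endothelial cells of liver all carry interferon receptors.

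Levels are log2 scanner signal relative to the 75th percentile of the same array, so a level of 0 equals that percentile, and levels of different genes are not set against each other. The signal at that percentile ranged from 197 to 568 over the 30 arrays and was lowest in chimeric livers, and the number of arrays in a group limits the precision. A probe counts as measured where the scanner software found it well above background. Between 28 and 35 of the 36 genes were measured on an array. On all 30 arrays 26 of them were measured. Ifit1 was measured on no array, and Ifit3, Oasl and Oasl2 on none of the 14 chimeric arrays. The 10 hepatocyte markers were measured on every array. The Nr1i3 probe read 0.69 to 1.35 in CAR KO controls and 0.76 to 1.88 in SD controls, so it does not tell the genotypes apart, and the sources used here do not say where it lies relative to the deleted part. Cyp2b2, a classic CAR target, read 6.56 to 7.35 in SD rats on PB, 5.86 to 7.35 in chimeric mice on PB and 2.65 to 2.91 in CAR KO rats on PB. Each rat model lay on a slide of its own with each diet in a row of its own, so model and slide cannot be told apart, nor diet and row. All chimeric controls and 1 chimeric PB array (replicate 1) shared a slide, and the other 6 PB arrays lay on another. In whole liver, fewer cells of a type and less RNA per cell cannot be told apart.

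Promoter sequences were taken from the RefSeq table for build GRCr8, which held 30 of the 37 genes. The 250 bases before the gene start were searched on both strands for 2 motifs. The core of the interferon-stimulated response element, GAAANNGAAA, occurred in 19 of the 30 promoters (63.3%), against 3.41% of 33469 rat promoters of the same length. The gamma-activated site, TTCNNNGAA, which reads the same on both strands, occurred in 7 of 30 (23.3%), against 7.67% of all. These are matches of letters only. The sequences given are those of the chemokine genes Cxcl9 and Cxcl10, which lie side by side, Oas1a, Irf7 and Irf9, which were lower in CAR KO rats on PB, and Gbp2, Ifit3 and Oasl2, which were not or hardly measured in chimeric livers. Capitals mark matches to either motif, and matches may overlap. The Cxcl9 stretch is chr14:16006916-16007165 on the plus strand. The Cxcl10 stretch is chr14:15988816-15989065 on the plus strand. The Oas1a stretch is chr12:41330216-41330465 on the plus strand. The Irf7 stretch is chr1:205800024-205800273 on the minus strand. The Irf9 stretch is chr15:33065586-33065835 on the plus strand. The Gbp2 stretch is chr2:234005477-234005726 on the plus strand. The Ifit3 stretch is chr1:241527076-241527325 on the plus strand. The Oasl2 stretch is chr12:47383186-47383435 on the minus strand.
Cxcl9: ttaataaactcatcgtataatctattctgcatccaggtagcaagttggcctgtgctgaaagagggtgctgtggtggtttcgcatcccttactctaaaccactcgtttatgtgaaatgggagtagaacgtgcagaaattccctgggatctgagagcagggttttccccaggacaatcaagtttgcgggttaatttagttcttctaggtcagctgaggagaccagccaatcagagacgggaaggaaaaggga
Cxcl10: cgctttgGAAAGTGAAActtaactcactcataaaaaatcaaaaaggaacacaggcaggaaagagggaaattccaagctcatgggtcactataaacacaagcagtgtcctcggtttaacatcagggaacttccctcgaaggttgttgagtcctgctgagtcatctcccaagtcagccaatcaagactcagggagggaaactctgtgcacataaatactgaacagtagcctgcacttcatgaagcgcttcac
Oas1a: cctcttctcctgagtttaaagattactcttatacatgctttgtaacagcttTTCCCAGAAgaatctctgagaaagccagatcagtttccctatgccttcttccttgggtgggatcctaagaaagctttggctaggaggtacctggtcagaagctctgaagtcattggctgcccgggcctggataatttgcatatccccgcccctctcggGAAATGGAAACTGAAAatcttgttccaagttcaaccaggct
Irf7: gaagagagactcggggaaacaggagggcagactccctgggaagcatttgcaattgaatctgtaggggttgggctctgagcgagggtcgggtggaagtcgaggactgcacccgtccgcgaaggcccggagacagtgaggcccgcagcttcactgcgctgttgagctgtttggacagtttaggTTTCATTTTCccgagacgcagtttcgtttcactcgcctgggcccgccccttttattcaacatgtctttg
Irf9: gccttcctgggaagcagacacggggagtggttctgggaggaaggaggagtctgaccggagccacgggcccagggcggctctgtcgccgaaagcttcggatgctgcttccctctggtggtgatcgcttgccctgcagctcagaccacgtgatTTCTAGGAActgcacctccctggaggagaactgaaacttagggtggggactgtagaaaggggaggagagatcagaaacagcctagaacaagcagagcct
Gbp2: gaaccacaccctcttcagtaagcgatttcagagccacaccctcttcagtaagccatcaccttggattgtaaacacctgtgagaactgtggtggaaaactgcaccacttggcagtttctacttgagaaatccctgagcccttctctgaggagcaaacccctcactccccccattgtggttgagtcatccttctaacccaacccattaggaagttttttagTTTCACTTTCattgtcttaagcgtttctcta
Ifit3: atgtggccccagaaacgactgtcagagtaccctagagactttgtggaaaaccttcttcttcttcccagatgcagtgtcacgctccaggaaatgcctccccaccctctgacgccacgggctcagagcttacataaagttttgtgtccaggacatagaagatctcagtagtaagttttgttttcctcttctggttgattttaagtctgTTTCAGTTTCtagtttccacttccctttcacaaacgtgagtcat
Oasl2: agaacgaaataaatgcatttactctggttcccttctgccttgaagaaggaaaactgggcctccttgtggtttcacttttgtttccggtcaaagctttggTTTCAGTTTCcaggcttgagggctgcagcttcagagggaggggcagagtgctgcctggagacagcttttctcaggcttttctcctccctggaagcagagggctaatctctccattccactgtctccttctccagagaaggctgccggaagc

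Cxcl9 held neither motif in this window. Cxcl10 held a GAAANNGAAA match that starts 243 bases before the gene start. Oas1a held 2 overlapping matches, which start 41 and 35 bases before the gene start, and a TTCNNNGAA match at 199. Irf7, Gbp2, Ifit3 and Oasl2 each held a GAAANNGAAA match, at 69, 31, 44 and 151 bases, and Irf9 a TTCNNNGAA match at 99 bases. The promoters of Stat2, Mx1, Parp9, Cmpk2, Oasl and Ifi35 also held neither. On chromosome 14 of the table Cxcl11, Cxcl10 and Cxcl9 follow each other with no other gene between them.

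Among the chemokine genes, PB raised Cxcl9 in SD rats and in chimeric mice. Cxcl9 encodes an interferon gamma-induced ligand of the receptor CXCR3 on T cells and NK cells. In the 4 SD controls its level was -0.69, -0.98, -1.02 and -0.98, and in the 4 SD rats on PB it was 0.27, 1.28, 0.24 and 1.01. All PB livers lay above all controls, and the rise was 3.06-fold (log2 difference 1.61 ± 0.253, SE, adjusted p = 0.00247). CAR KO rats gave -1.21, -0.53, -0.36 and -0.30 on control diet and -1.09, -0.37, -0.52 and -0.95 on PB. These groups overlapped throughout, with a difference of -0.13 ± 0.254 (adjusted p = 0.848). In chimeric mice Cxcl9 ranged from -3.05 to -2.17 on control diet (median -2.66) and from 0.05 to 0.63 on PB (median 0.38). Every one of the 7 PB livers was above every control, and the rise was 8.38-fold (3.07 ± 0.138, adjusted p = 2.19e-09). The PB array on the controls' slide read 0.38, and with slide as a block the rise was 3.08 ± 0.279 (adjusted p = 6.53e-05).

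The response of Cxcl9 differed between models. It was smaller in CAR KO than in SD rats by -1.75 ± 0.359 on the log2 scale, with an adjusted p of 0.049. That call was lost when any of 13 of the 16 rat arrays was left out (adjusted p from 0.0548 to 0.105), so it rests on the full set of arrays. The exceptions were SD PB 1, SD PB 3 and CAR KO control 1. On PB diet alone, Cxcl9 was 2.69-fold lower in CAR KO than in SD rats (-1.43 ± 0.253, adjusted p = 0.000481), and this held without each array in turn. The response was larger in chimeric mice than in SD rats by 1.45 ± 0.281 (adjusted p = 0.000832). With slide as a block that difference was 1.46 with an adjusted p of 0.203, and with another background correction it was 0.55 (adjusted p = 0.0942). Chimeric controls lay 3.44-fold below SD controls, and on PB the models differed by -0.33 ± 0.198 (adjusted p = 0.133).

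The neighbouring chemokine genes did not pass the test. Cxcl10, a further CXCR3 ligand, read -1.77, -2.09, -1.99 and -1.88 in SD controls and -1.30, -0.75, -1.63 and -0.54 on PB. These SD groups did not overlap, yet the difference of 0.88 ± 0.365 had an adjusted p of 0.197. In chimeric livers Cxcl10 scattered from -3.54 to 0.12 on control diet and from -2.66 to 0.79 on PB. Cxcl11, the third ligand, differed by 0.07 ± 0.121 on PB in SD rats, 0.27 ± 0.122 in CAR KO rats and -0.05 ± 0.213 in chimeric mice.

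**Figure D1:**
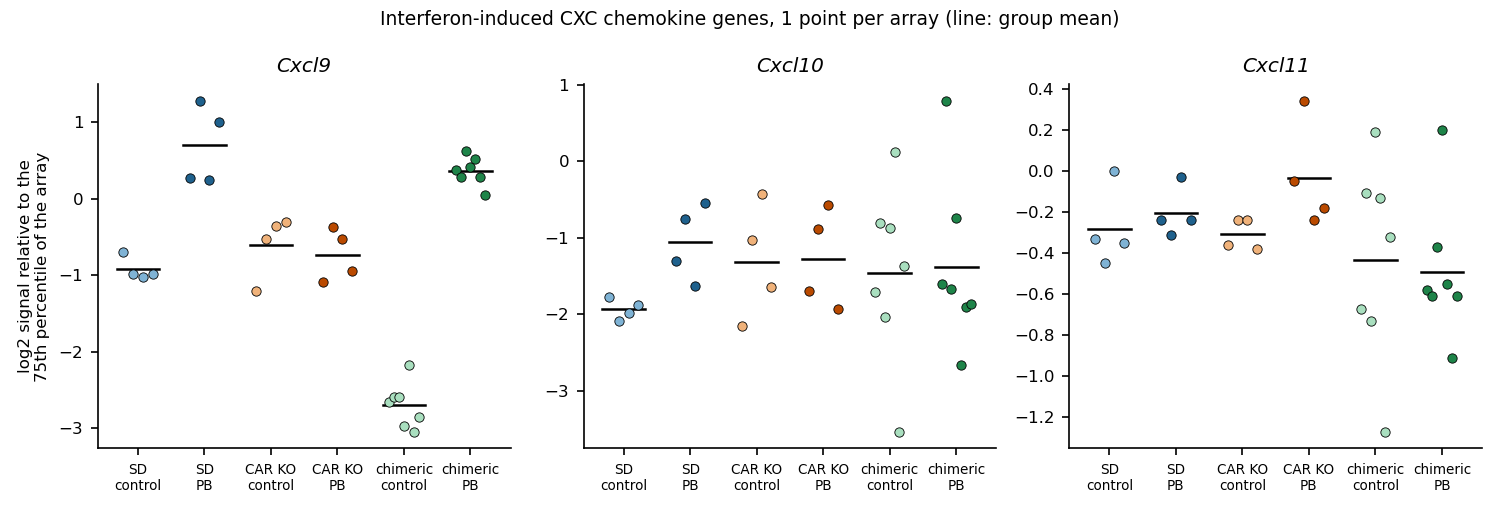
Level of Cxcl9, Cxcl10 and Cxcl11 on each array (y axis, log2 signal relative to the 75th percentile of the array) in the 6 groups, with a line at each group mean. Cxcl9 lies between 0.24 and 1.28 in SD rats on PB and between 0.05 and 0.63 in chimeric mice on PB, above their controls, and the CAR KO groups overlap.

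Apart from Cxcl9, no interferon-responsive gene passed the test for PB in SD rats. Of 35 members tested 1 rose and 0 fell, where 4.23% of 17285 genes were called in either direction, 2.46% as higher and 1.76% as lower. The log2 differences were above 0 for 31 of the 35, with a median of 0.18 (all genes tested, -0.02), and 5 members had an unadjusted p under 0.05. Without SD control 1, a 2nd member was called, Parp9, a binding partner of an E3 ligase in interferon signalling. Besides Cxcl10, the next in size were Oas1a, a synthase of the 2-5A messenger that activates RNase L, at 1.12 ± 0.452 (adjusted p = 0.182), and Usp18, which removes ISG15 and damps receptor signalling, at 0.80 ± 0.384 (adjusted p = 0.268). SD control 3 read lowest for these genes: Oas1a was -1.05, -0.66, -2.61 and -0.64 in the SD controls, and Usp18 was -1.45, -0.89, -2.66 and -0.90. That array was the lowest of its group for 16 of 34 members measured throughout. Without it, the difference on PB was 0.67 for Oas1a and 0.40 for Usp18.

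In CAR KO rats, 0 of 34 members passed the test for PB (limma, unadjusted p under 0.05 for 2, Parp14 and Cxcl11), where 0.163% of 17841 genes were called, 0.0448% as higher and 0.118% as lower. The median difference was 0.05 (all genes tested, -0.02), with 23 above 0 and 11 below. The largest differences were those of Rtp4, a receptor chaperone and interferon-induced regulator (0.43 ± 0.234), and Irf8, a myeloid transcription factor (-0.32 ± 0.429, which turned to 0.12 without CAR KO PB 4 and to 0.06 with another background correction). Eif2ak2, the RNA-activated kinase PKR, differed by 0.31 ± 0.153, while its other probe gave -0.13. Gbp2, an interferon-induced GTPase, differed by -0.28 ± 0.218. Besides Cxcl9, no member differed in its response between CAR KO and SD rats: of 35 tested, 0 responded more and 1 less, where 0.524% of all genes were called and 0.42% as smaller. The largest other differences of response were Oas1a at -1.07 ± 0.642 (adjusted p = 0.508), Cxcl10 at -0.83 ± 0.518 and Rsad2, which encodes the antiviral protein viperin, at 0.80 ± 0.551.

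**Figure D2:**
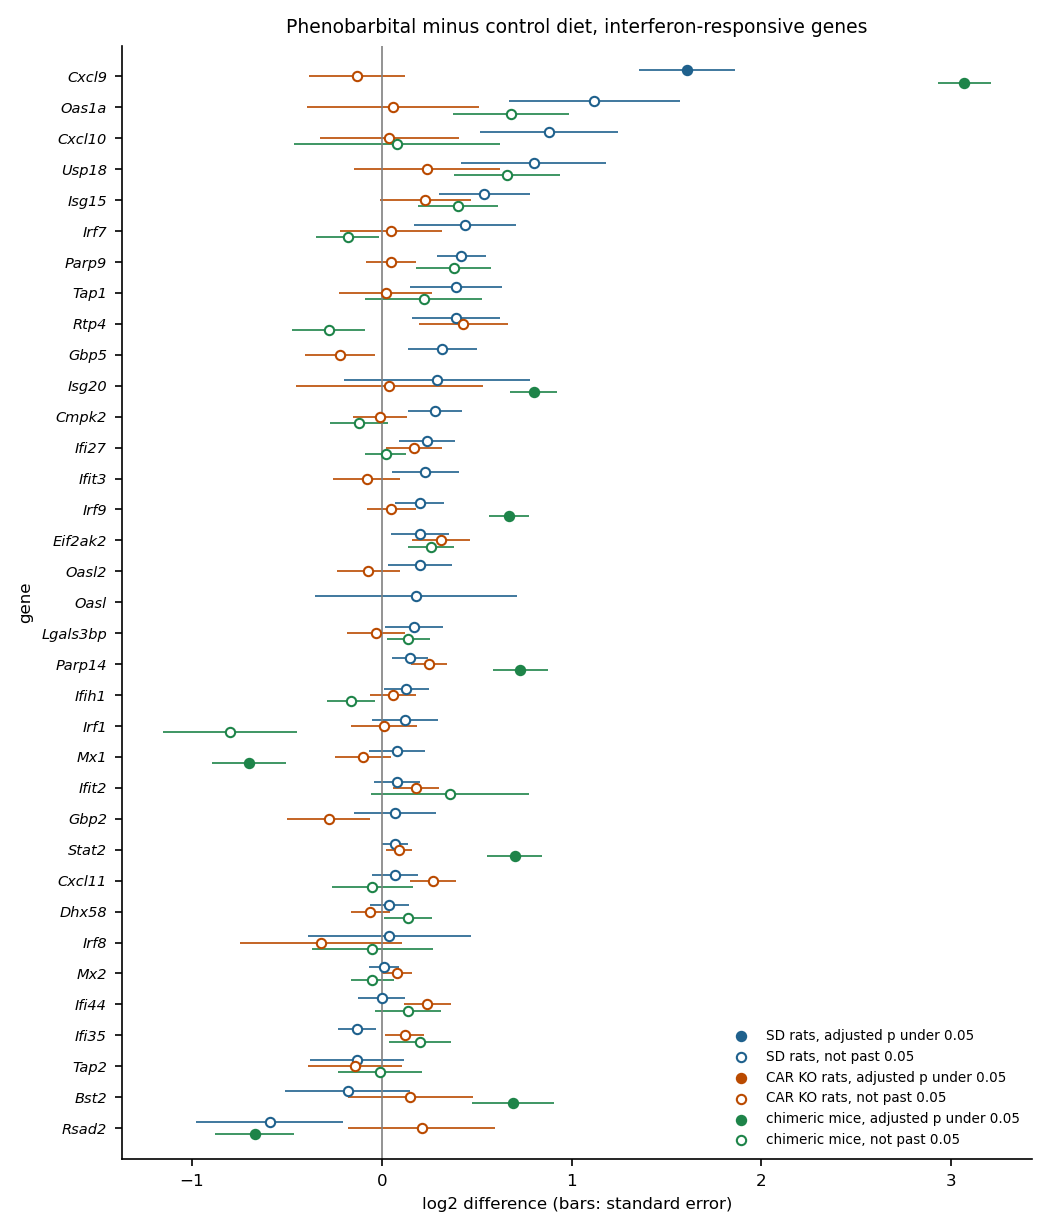
Log2 difference on PB against control diet (x axis, bars are standard errors) for each gene tested, in SD rats, CAR KO rats and chimeric mice. Filled points passed an adjusted p of 0.05: Cxcl9 in SD rats, 8 genes in chimeric mice (before any term for slide) and none in CAR KO rats.

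CAR KO livers had lower levels of several regulators and effectors than SD livers. More of them were called on PB diet, where more of all genes were called too. The share of members called was 8.57% on control diet and 36.4% on PB, under that of all genes called in either direction. Counting lower calls only, the share of members was under that of all genes on control diet and above it on PB. On control diet 3 of 35 members were lower and 0 higher, where 34% of 18024 genes were called and 19.7% as lower. On PB diet 12 of 33 were lower and 0 higher, where 41.9% of 16844 genes were called and 25.1% as lower. With other scalings the PB split was 1 higher and 12 lower (median centring, quantile) or 2 higher and 10 lower (percentile over probes measured on all arrays). The groups did not overlap for 8 of 35 members on PB and 2 on control diet, against 38.7% and 34.3% of all genes. The median difference was -0.17 on control diet and -0.22 on PB (all genes, -0.08 and -0.06). The 3 genes called on control diet were called on PB as well, and 21 of 33 members had the same sign on both diets, which used different animals. The test of the response itself, given above, called Cxcl9 alone, so for the other members a difference between the diets in this gap was not shown.

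Among the regulators, Irf7, which amplifies type I interferon production, read 1.74, 0.80, 0.86 and 1.27 in SD rats on PB and -0.10, 0.79, 0.16 and 0.06 in CAR KO rats on PB. These groups did not overlap, with a difference of -0.94 ± 0.267 (adjusted p = 0.0116). On control diet, Irf7 read 0.82, 1.01, 0.03 and 1.05 in SD rats and -0.27, 0.19, 0.40 and 0.37 in CAR KO rats, a difference of -0.55 that did not pass. Irf9, the DNA-binding part of the STAT complex, read -0.81, -1.22, -1.01 and -0.78 in SD rats on PB and -1.54, -1.29, -1.67 and -1.48 in CAR KO rats on PB. The Irf9 levels did not overlap on PB (-0.54 ± 0.129, adjusted p = 0.00385). On control diet they did not overlap either, though after rounding both groups reached -1.34. There Irf9 read -1.06, -1.15, -1.34 and -1.06 in SD rats and -1.89, -1.47, -1.34 and -1.47 in CAR KO rats (-0.39 ± 0.129, adjusted p = 0.0307). Its partner Stat2 differed by -0.15 ± 0.0689 on PB (adjusted p = 0.0907), and Irf1, an early interferon gamma target, by -0.02 ± 0.174. The other probe of Irf1 gave -0.41 ± 0.168 on PB and -0.27 ± 0.168 on control diet, so the Irf1 probes differ.

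The largest difference of a single member on PB was that of Oas1a. It read 0.27, -0.15, -0.67 and 0.10 in SD rats on PB and -2.71, -1.52, -2.86 and -2.21 in CAR KO rats on PB, a 4.62-fold lower mean level without overlap (-2.21 ± 0.452, adjusted p = 0.00143). On control diet, its difference was -1.14 ± 0.454 (adjusted p = 0.0662), and -1.60 without SD control 3 (adjusted p = 0.00729). Oas1 genes of rat form a family of close copies, so a probe may read more than 1 copy and the Oas1a values are uncertain to that extent. Oas1i and Oas1k, from a list of other interferon-induced genes, differed by -1.63 ± 0.399 and -1.58 ± 0.372 on PB. Usp18 read -0.31, -1.36, -0.67 and -0.37 in SD rats on PB and -2.42, -1.61, -2.30 and -1.80 in CAR KO rats on PB (-1.35 ± 0.384, adjusted p = 0.0115), and its other probe gave -1.32. Isg15, the ubiquitin-like modifier that Usp18 removes, read 1.17, 0.81, 0.77 and 1.35 in SD rats on PB and 0.34, 0.54, 0.02 and 0.49 in CAR KO rats on PB. The difference in Isg15 was -0.68 ± 0.240 (adjusted p = 0.0349), without overlap.

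Other effectors lower in CAR KO rats on PB were Cmpk2, a mitochondrial nucleotide kinase (-0.78), Gbp2 (-0.64), the secreted glycoprotein gene Lgals3bp (-0.61), the OAS-like gene Oasl2 (-0.56), Ifit3, of the family that binds viral RNA (-0.55), and Dhx58, the RNA sensor LGP2 (-0.36). Their adjusted p ran from 0.000586 for Cmpk2 to 0.0292 for Gbp2. The calls of Gbp2, Isg15, Oasl2 and Ifit3 were lost when any of 5, 4, 2 and 2 of the 8 arrays was left out, and those of the other 8 genes held. Cmpk2 (-0.49 ± 0.142, adjusted p = 0.0169) and Lgals3bp (-0.41 ± 0.152, adjusted p = 0.0493) were the other members lower on control diet. Values on control diet that did not pass included Usp18 at -0.79 ± 0.386, Oasl, another OAS-like gene, at -0.67 ± 0.532 and Cxcl10 at 0.62 ± 0.366. The control-diet count went from 3 to 0 without SD control 1, to 1 (Cmpk2) without SD control 2 or SD control 4, and to 6 without SD control 3 or CAR KO control 3. Members with no call in these comparisons included Mx1, an antiviral GTPase (-0.17 ± 0.146 on PB), Ifit2 (0.09 ± 0.123), Cxcl11 (0.17 ± 0.121) and the peptide transporter genes Tap1 (0.24 ± 0.242) and Tap2 (0.21 ± 0.248). These values are all on PB, and on control diet Tap1 differed by 0.6 and Tap2 by 0.22.

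Macrophage markers moved in the same direction between these models, and so did hepatocyte markers. Of 14 macrophage and Kupffer cell markers, 5 were lower in CAR KO than SD rats on control diet and 7 on PB, and 0 were higher. Of all genes, 34% were called on control diet and 41.9% on PB, 19.7% and 25.1% as lower. Their summed level ranged from 112 to 132 in SD controls and 80 to 126 in CAR KO controls. On PB it was 115 to 130 and 63.7 to 104, and no marker was unmeasured. Of 10 hepatocyte markers 3 were lower on control diet and 2 on PB, and 0 were higher. Their summed level was 2990 to 3200 in SD controls and 2640 to 2790 in CAR KO controls. On PB it was 2870 to 3020 and 2410 to 2790. Of 8 stellate cell and fibroblast markers 2 were lower and 1 higher on control diet, and 1 lower and 1 higher on PB. Of the T and NK cell markers tested, 3 of 12 were higher on control diet and 0 lower, and on PB 2 of 11 were higher and 1 lower. As higher, 14.4% of all genes were called on control diet and 16.8% on PB. The part of these cells in the interferon genes was not tested. CAR KO control 1 read lowest of its group for 25 of 34 members and CAR KO PB 2 highest for 25 of 33.

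**Figure D3:**
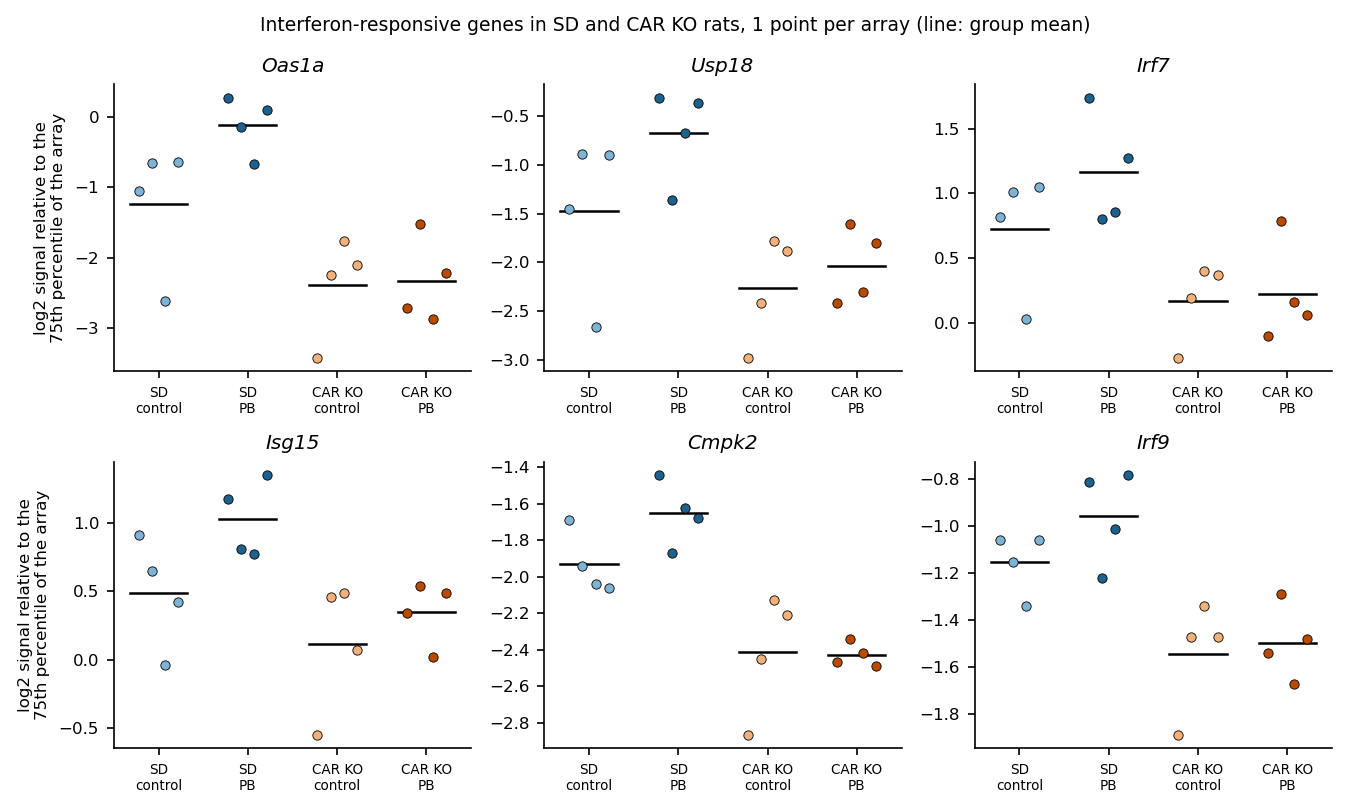
Levels of Oas1a, Usp18, Irf7, Isg15, Cmpk2 and Irf9 on each rat array (y axis, log2 signal relative to the 75th percentile of the array), with a line at each group mean. These 6 are among the 8 members whose PB groups did not overlap (38.7% of all genes did not), with CAR KO rats lower, while on control diet SD control 3 reads among CAR KO levels for several of them.

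**Figure D4:**
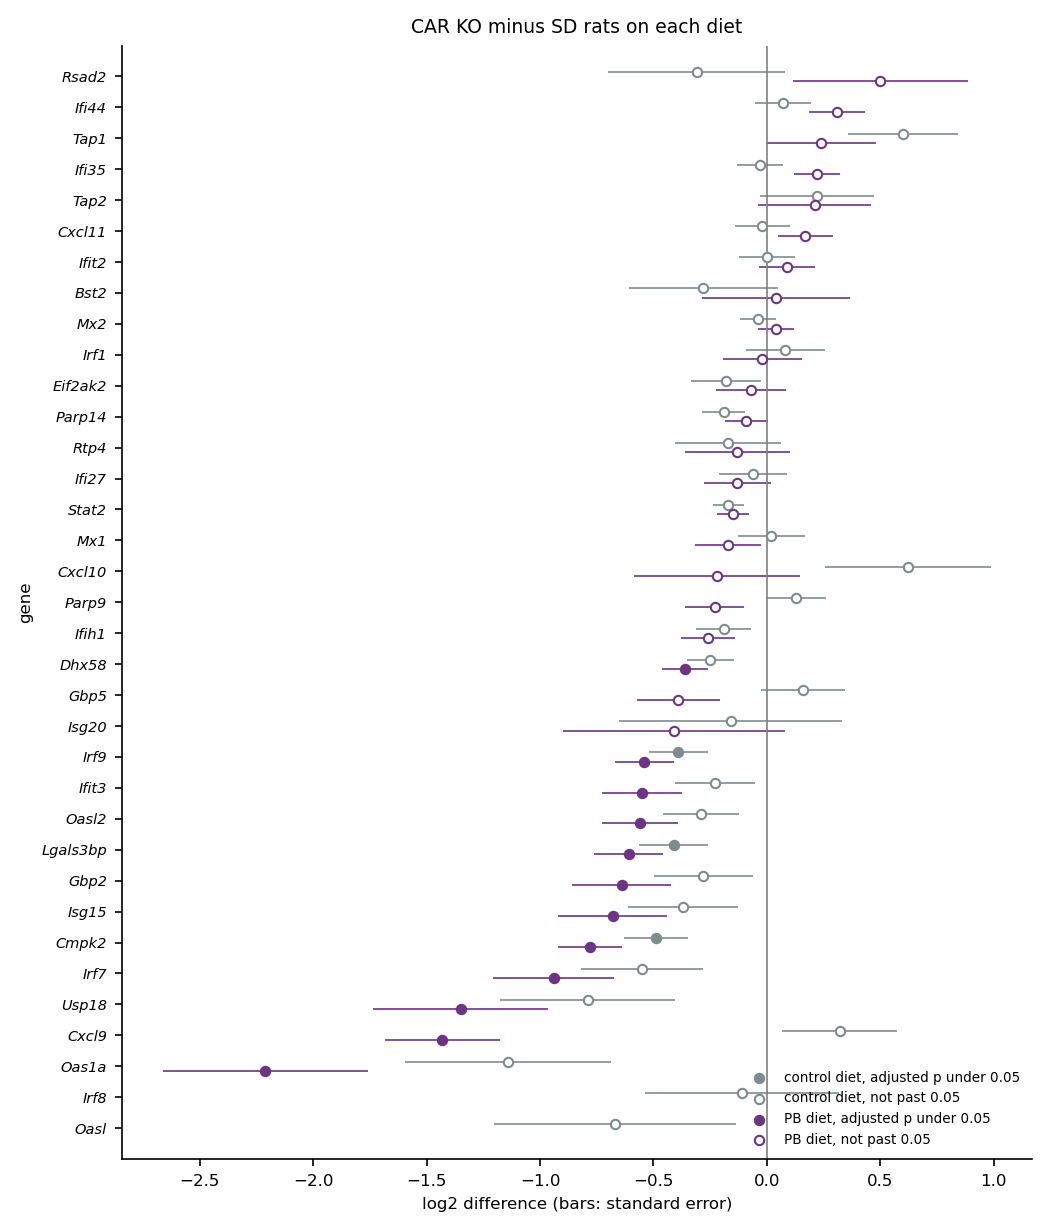
Log2 difference of CAR KO minus SD rats (x axis, bars are standard errors) for each gene tested on control diet and on PB diet. Filled points passed an adjusted p of 0.05: 3 genes on control diet and 12 on PB, all below 0.

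In chimeric mice 6 of 30 members tested were higher on PB and 2 lower, before any term for slide. Of 14642 genes 42.6% were called, 19.3% as higher and 23.3% as lower. The median was 0.14 (all genes, 0.06). Beside Cxcl9, the members that rose were Isg20, an RNA exonuclease (0.80 ± 0.123), Parp14, an ADP-ribosyltransferase (0.73 ± 0.145), Stat2 (0.70 ± 0.143), Bst2, or tetherin (0.69 ± 0.215), and Irf9 (0.67 ± 0.106). Mx1 fell by 0.70 ± 0.195 and Rsad2 fell by 0.67 ± 0.21. With slide as a block, 1 of the 30 was called, Cxcl9, among 159 genes of the whole array. The values with that block were 0.50 for Isg20, 0.53 for Parp14, 0.74 for Stat2, 0.07 for Bst2, 0.32 for Irf9, 0.21 for Mx1 (the sign turned) and -0.08 for Rsad2, with adjusted p from 0.347 to 0.988. With arrays centred on their median, where the median of all genes moved to 0.35, 14 members were higher and 0 lower.

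Irf9 ranged from -2.05 to -1.84 in chimeric controls (median -1.89) and from -1.60 to -1.01 on PB, and the PB array on the controls' slide was the lowest of these at -1.60. Stat2 ranged from 3.38 to 3.94 in controls and from 3.91 to 4.85 on PB, and the PB array on the controls' slide read 4.33, above every control. Mx1 ranged from -1.10 to -0.67 in controls, and the PB array on that slide read -0.66 while the other 6 read -2.15 to -1.27. Irf7 ranged from 3.41 to 4.06 on control diet and from 2.91 to 4.20 on PB, with full overlap. Of 8 macrophage markers tested in this comparison 4 fell and 0 rose, and all 5 T and NK cell markers tested fell (all genes, 23.3% lower). These marker counts were made without a term for slide, and most PB arrays lay on another slide than the controls. The summed macrophage level was 56.6 to 67.9 in chimeric controls and 39.9 to 62.3 on PB. The part of these cells in the interferon genes was not tested.

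Chimeric livers differed from SD livers in both directions, with Gbp2, Oasl2 and Ifit3 among the genes lower and Irf7 and Mx2 among those higher. On control diet 17 of 35 members were lower and 6 higher, where 74.5% of 17443 genes were called, 36.1% as lower and 38.4% as higher. On PB diet 17 of 34 were lower and 10 higher, where 72.5% of 16046 genes were called, 34% as lower and 38.6% as higher. On control diet 17 of 35 members lay entirely below SD levels and 4 entirely above, and on PB 14 and 7. Of all genes, 60.9% and 54% did not overlap. The median difference was -0.49 and -0.33 (all genes, 0.03 and 0.00). Of 34 members tested on both diets 28 had the same sign, and all 21 called on both kept their sign. The splits depend on scaling: with median centring they were 12 higher and 16 lower on control diet and 13 and 12 on PB, and with the percentile over probes measured on all arrays 3 and 22, and 4 and 22. Those scalings moved the median of all genes to 0.43 and 0.68, and to -0.34 and -0.45.

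Several members were measured on few or no chimeric arrays: Ifit1, Ifit3, Oasl and Oasl2 on none, and Gbp2 on 1 of 7 in each diet group. Oasl, measured on 3 of 4 SD control arrays, was at least 1.36-fold lower in chimeric controls, but its difference of -1.50 turned to 0.24 with normexp. Gbp2 read 0.50, 0.55, 0.37 and 0.43 in SD controls and from -6.69 to -5.37 in chimeric controls, where 1 of 7 arrays measured it (-6.48 ± 0.359, adjusted p = 1.16e-14). Its size there rests mostly on signals not above background. Oasl2 read -1.33, -1.30, -1.54 and -1.35 in SD controls and was measured on no chimeric array, so its level was at least 17.2-fold lower on control diet and at least 20.9-fold lower on PB. Ifit3 read -2.88, -2.99, -3.69 and -3.13 in SD controls and was likewise unmeasured, at least 5.34-fold and 6.4-fold lower. These bounds set the SD mean against the lowest signal counted as measured on each chimeric array, or the probe's own where higher.

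Further effectors, measured on at least some chimeric arrays of each diet, were lower in chimeric livers on both diets. Ifit2 differed by -2.89 ± 0.373 on control diet (measured on 5 of 7 chimeric arrays) and -2.62 on PB. Gbp5 differed by -2.33 and -2.99 (measured on 3 of 7 and 2 of 7 chimeric arrays), Rsad2 by -2.14 and -2.22, and Parp9 by -2.08 and -2.12. Isg15 ranged from -2.16 to -0.99 in chimeric controls, 4.25-fold below SD controls (-2.09 ± 0.237, adjusted p = 1.59e-08), and by -2.23 on PB. Usp18 differed by -2.02 (measured on 6 of 7 chimeric control arrays) and -2.15, and Mx1 by -1.88 ± 0.191 and -2.65 ± 0.190. Mx1 and Mx2 are close copies, so their probes may share signal, and the Mx2 probe differed the other way (1.03 ± 0.102 on control diet). Rsad2 on SD control 1 read 0.42, and the other SD controls read -1.20, -0.76 and -1.19.

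Irf7 was the member with the largest excess in chimeric livers. It ranged from 3.41 to 4.06 in chimeric controls against 0.03 to 1.05 in SD controls, 7.93-fold higher without overlap (2.99 ± 0.223, adjusted p = 6.42e-12), and by 2.37 ± 0.223 on PB. Of all genes, 60.9% did not overlap on control diet either. Irf8 was higher by 1.62 ± 0.391 and 1.53 ± 0.390, measured on 6 of 7 chimeric control arrays and on 2 of 4 SD arrays on PB. Irf9 was lower on control diet (-0.77 ± 0.117) and on PB (-0.30 ± 0.117, which turned to 0.38 with median centring). Stat2 differed by -0.01 ± 0.127 on control diet and by 0.62 ± 0.126 on PB. That Stat2 call was lost with quantile normalization (0.03, adjusted p = 0.773) and with the percentile over probes measured on all arrays (0.16, adjusted p = 0.17). Probes of a gene disagreed for Parp14, whose probe used gave 0.51 on PB and whose other probe gave -0.36. For Irf1 the probes gave -1.10 and -2.46 on PB. The smaller excesses of Ifi27, Ifi44, Lgals3bp and Isg20 were lost or turned with at least 1 other scaling.

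Marker signals of other liver cells differed between these livers as well. Of all genes, 74.5% were called on control diet and 72.5% on PB, 36.1% and 34% as lower. Of 14 macrophage markers, 12 were lower in chimeric than in SD controls and 13 on PB, with summed levels from 56.6 to 67.9 in chimeric controls against 112 to 132. Marco and Aif1 were measured on no chimeric array, and 9 of 15 T and NK cell markers, Cd3g, Cd4, Cd8a and Lck among them, on none of the chimeric control arrays. Chimeric arrays had 26 to 30 of the 36 members measured throughout a group, against 33 or 34 in rat groups. Of 8 stellate cell and fibroblast markers 5 were lower and 3 higher in chimeric controls, and of 5 endothelial markers 4 were lower. Summed B and plasma cell markers were higher, at 2.69 to 4.72 against 1.56 to 1.84 in SD controls. Of the 4 tested, 3 were lower and 1 higher. Summed dendritic cell markers were also higher, at 1.5 to 1.83 against 0.946 to 1.37, with 2 of 3 tested lower and 1 higher. Species of these cells, slide and model cannot be told apart here, and their part in the interferon genes was not tested.

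**Figure D5:**
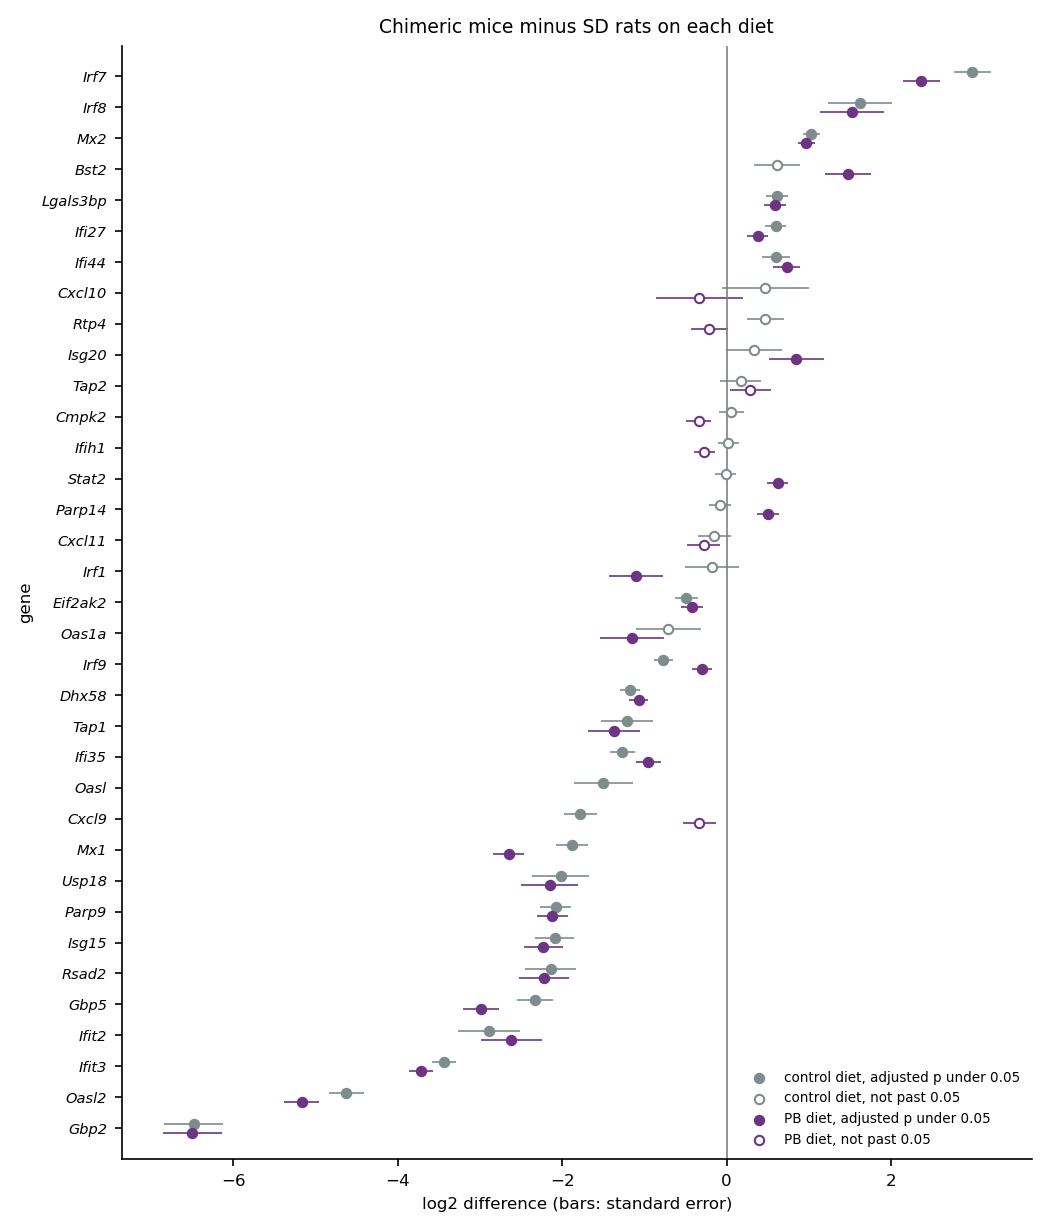
Log2 difference of chimeric mice minus SD rats (x axis, bars are standard errors) for each gene tested on control diet and on PB diet. Gbp2, Oasl2 and Ifit3 lie farthest below 0, with chimeric signals mostly or all at background, and Irf7 lies highest at 2.99 and 2.37.

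Of 35 members, 4 responded more to PB in chimeric mice than in SD rats and 1 less, where 18.8% of 17538 genes were called, 6.3% as larger and 12.5% as smaller. Beside Cxcl9, these were Stat2 (0.63 ± 0.179, adjusted p = 0.0142), Parp14 (0.59 ± 0.191, adjusted p = 0.0311), Irf9 (0.47 ± 0.166, adjusted p = 0.047) and Mx1 (-0.78 ± 0.27, adjusted p = 0.0432). Stat2 and Cxcl9 stayed called when each of the 22 arrays was left out, while Irf9, Mx1 and Parp14 were lost on leaving out 14, 12 and 6 of them in turn. The count fell to 2 (Cxcl9 and Stat2) without SD control 4. With slide as a block 0 of 35 was called.

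Interferons themselves and their receptors were taken from a list of 42 pathway genes, 31 of them on the array. The ligand genes Ifng and Ifna5 and the lambda receptor gene Ifnlr1 were measured on no array of any group, and Ifnb1 on no rat array. The ligand gene Ifna4 was higher in CAR KO than SD rats on control diet (0.42 ± 0.0905) and on PB (0.38 ± 0.0899, and 0.08 with an adjusted p of 0.267 under normexp). In chimeric mice Ifna4 fell by 1.2 ± 0.194 on PB (with slide as a block -0.31, adjusted p = 0.809), and its response differed from that of SD rats by -1.07 (with the block -0.18, adjusted p = 0.979). Ikbke, a kinase that activates interferon regulatory factors, was the only one of 22 tested that changed on PB in SD rats (0.61 ± 0.145, adjusted p = 0.0309), where 4.23% of all genes were called. In chimeric mice Ikbke rose by 1.41 ± 0.154 (with slide as a block 1.19, adjusted p = 0.0934). In CAR KO rats 0 of 22 passed (limma, 2 at an unadjusted p under 0.05), where 0.163% of all genes were called. Ikbke differed there by 0.41 ± 0.145, and the difference of its responses was -0.20 ± 0.206. Its level was lower in CAR KO than SD rats on control diet (-0.72 ± 0.146) and on PB (-0.92 ± 0.145). Between CAR KO and SD rats 2 of 22 pathway genes were higher and 4 lower on control diet (all genes, 14.4% and 19.7%). On PB 3 were higher and 2 lower (all genes, 16.8% and 25.1%). The RNA sensor gene Tlr3 was higher on control diet (0.78 ± 0.248) and Ifngr1, a chain of the interferon gamma receptor, was lower (-0.45 ± 0.109), while the adaptor gene Mavs was higher on PB (0.58 ± 0.0865). In chimeric mice 3 of 19 rose on PB and 4 fell (all genes, 19.3% and 23.3%). Among those that fell were Irf5 (-0.73) and Socs3, a feedback inhibitor (-0.81). With slide as a block Irf5 was at -0.20 (adjusted p = 0.926) and Socs3 at -0.84 (adjusted p = 0.513), and none of the pathway or other induced genes named here for this comparison kept its call. Against SD controls 12 of 22 were lower in chimeric livers and 5 higher (all genes, 36.1% and 38.4%), with Ifngr1 4.31-fold lower (-2.11 ± 0.133) and Irf5 by -2.04. On PB 8 were lower and 6 higher (all genes, 34% and 38.6%). In response, 0 of 22 differed between CAR KO and SD rats (limma, 3 at an unadjusted p under 0.05), where 0.524% of all genes were called. Between chimeric mice and SD rats 2 responded more and 1 less (all genes, 6.3% and 12.5%).

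A list of 62 other interferon-induced genes had 42 on the array. On PB in SD rats 2 of 40 tested rose and 0 fell (all genes, 2.46% and 1.76%). The 2 were Phf11, which encodes a PHD finger protein (0.69 ± 0.106, adjusted p = 0.00224), and Ifi44l (0.42 ± 0.11, adjusted p = 0.0468). The Ifi44l call was lost with median centring (adjusted p = 0.0556), with the percentile over probes measured on all arrays (0.0584) and with normexp (0.16, adjusted p = 0.128). Phf11 rose by 1.15 ± 0.167 in chimeric mice (with slide as a block 0.92, adjusted p = 0.298), where 5 of 30 rose and 7 fell (all genes, 19.3% and 23.3%). In CAR KO rats 0 of 40 changed on PB (limma, 5 at an unadjusted p under 0.05), and 0 of 40 differed in response from SD rats (3 at an unadjusted p under 0.05). Of all genes, 0.163% and 0.524% were called in these 2 tests. Between CAR KO and SD rats 4 of 40 were higher and 6 lower on control diet (all genes, 14.4% and 19.7%), and 7 higher and 13 lower on PB (all genes, 16.8% and 25.1%), with Tor3a (1.61) and the GTPase gene Ifi47 (1.12 ± 0.249) among those higher. In chimeric livers 24 were lower and 9 higher than in SD controls (all genes, 36.1% and 38.4%). Among those lower were the T cell chemokine gene Ccl5 (-5.33 ± 0.18), Slfn2 (-4.29 ± 0.351, measured on 1 of 7 chimeric control arrays), the membrane restriction gene Ifitm1 (-3.67 ± 0.118) and Slfn4, at least 26.5-fold lower and measured on no chimeric control array. On PB diet 24 of 39 were lower and 8 higher (all genes, 34% and 38.6%). In response 1 of 40 was larger and 3 smaller than in SD rats (all genes, 6.3% and 12.5%).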

How the data were processed

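RNA of 30 livers was hybridised to 1-colour Agilent rat arrays (design 028279). The deposited scanner files hold a processed signal intensity per spot, made by the authors with Feature Extraction 10.7.3.1 (protocol GE1_107_Sep09), per the file headers. The authors also deposited a table of log2 values, used as an alternative only. Set against the scanner files, its values differ from log2 intensity by about the 75th percentile of each array; how the authors scaled it is not stated. Control spots (4259 of 62976) were left out, spots of a probe were averaged and log2 intensity was taken minus the 75th percentile of each array. Probes were named by transcript accession through the RefSeq table of GRCr8 (18004 of 30367 probes, 15170 symbols), and the probe brightest in the 16 rat arrays stood for its gene.

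A gene was tested where it was well above background on 75% or more of the arrays of at least 1 group compared. Differences were tested with limma 3.58.1 in R 4.3.3 (lmFit and eBayes), in separate fits of the rat arrays, the chimeric arrays and all 30, and p-values were adjusted by Benjamini-Hochberg over all genes tested, with a threshold of 0.05. The p-values measure the spread between these animals. A fold of "at least" sets the measured mean against the floor of arrays where the probe was not well above background. The scripts were tested on simulated data.

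In each comparison every called member was named up to 12, otherwise the 12 largest; where under 4 were called, the 4 largest others were added. Up to 4 called genes of each other list were named. Tap1, Tap2, Irf1, Ifit2, Cxcl11 and the smaller chimeric differences were named after their values were seen. The members and lists were chosen with earlier results of these data known. The alternatives included scaling, background correction (normexp with an offset of 50, on the median signal, since the files used here held no mean signal), filters, fits, slide and leaving out each array.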

Additional observations from a re-analysis of the deposited data

Results flagged for a closer look

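In SD controls, Cxcl9 on replicate 1 read -0.69, apart from the other 3 arrays, whose nearest was -0.98. In CAR KO controls, Mx1 on replicate 1 read 0.76, apart from the other 3 arrays, whose nearest was 1.08. These were 2 of 84 groups of values checked, and chance alone sets apart about 1 in 20. The response of Cxcl9 to PB differed between CAR KO and SD rats by -1.75. Between chimeric mice and SD rats the response differed by 1.45 for Cxcl9, 0.63 for Stat2, 0.59 for Parp14, 0.47 for Irf9 and -0.78 for Mx1.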

How the results depend on the processing

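The single call for PB in SD rats and the absence of calls in CAR KO rats stood under each of the alternatives that kept all arrays, and the count of genes called in either direction between CAR KO and SD rats on PB ranged from 8 to 14. The counts for chimeric mice against SD rats ranged from 22 to 28 on control diet and 21 to 28 on PB. The CAR KO minus SD response count of 1 became 0 with median centring, with no filter and with a replicate block. The CAR KO minus SD count of 3 on control diet became 5 with median centring, 1 with the percentile over probes measured on all arrays, 8 with normexp and 0 with all 30 arrays in 1 fit. The chimeric PB count of 8 became 14 with median centring and 1 with slide as a block. The chimeric minus SD response count of 5 became 2 with normexp, 3 with no filter, 2 with only the groups compared and 0 with slide as a block. The cause of these moves was not tested. The sign turned for Irf8 on PB in CAR KO rats (0.06 with normexp, and from -0.70 to 0.12 when each array was left out), and with slide as a block for Mx1 on PB in chimeric mice (0.21) and in its response against SD rats (0.12). With each array left out in turn, the counts ranged from 1 to 2 for PB in SD rats, 0 to 1 and 2 to 6 for the CAR KO and chimeric response differences, and 0 to 6 for CAR KO minus SD on control diet. Replicate numbers did not pair the rat samples (correlations of same-numbered deviations from -0.261 to 0.129). In chimeric mice these correlations ran from -0.232 to 0.795, and 4 of 7 pairs were over 0.1. There 3 controls correlated best with the PB array of their own number, so a pairing of chimeric arrays was not settled. With the replicate block the counts were 1, 0 and 0 for PB in SD rats, PB in CAR KO rats and their difference, 2 and 11 for CAR KO minus SD on control and PB diet, 11 for PB in chimeric mice, and 24, 27 and 5 for chimeric minus SD on control diet, on PB and in response. Probes near background, above all in chimeric livers, limit the sizes given.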
